A study of Rattus norvegicus with 9 samples.

Results

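Heparan sulfate is a sulfated sugar chain carried by proteins of the cell surface and the basement membrane, and it binds growth factors such as GDNF, FGFs and Wnt proteins. Its backbone is polymerised by Ext1 and Ext2, and is then modified in the Golgi in a fixed order: N-deacetylation and N-sulfation by the Ndst enzymes, epimerisation of glucuronic to iduronic acid by Glce, and O-sulfation by Hs2st1, Hs6st1 and Hs3st1. After the chain has reached the cell surface, the extracellular sulfatases Sulf1 and Sulf2 remove 6-O-sulfate groups from it. In the kidney, mice without Hs2st1 are known to lack kidneys, since the ureteric bud does not branch.

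The account covers these 10 enzymes, taken as a named list and represented by every probe set whose only gene symbol in the platform table is one of them. All 10 genes had a probe set, 14 probe sets in all out of 31099 on the array. The RNA was that of rat embryos of the Sprague-Dawley strain at embryonic day 13, for which no allele or drug is named, and was measured on 9 single-colour oligonucleotide arrays of 3 tissues with 3 arrays each. UB is the isolated ureteric bud, the outgrowth that forms the collecting system, freed from the embryonic kidney with a light trypsin digestion. WD is the Wolffian duct from which the bud grows, dissected without treatment, and WD+IM is the Wolffian duct with its attached mesodermal cells. About 100 pieces were pooled per array for the UB and for the WD, and about 50 for the WD+IM. Arrays of a tissue are biological replicates according to the labels. Only the UB was digested, so the digestion and the tissue cannot be told apart in any comparison with it.

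The tissues carried the marker genes of their labels, and the isolated WD also carried those of mesenchyme. Over 6 genes of the bud tip the summed signal was 120057 to 140875 intensity units in the UB, 22217 to 27761 in the WD and 13741 to 16501 in the WD+IM. For WD+IM against WD these genes were split, 2 called higher and 2 lower as defined below, with a median log2 difference of 0.12. Over 13 genes of mesenchyme and its matrix it was 14424 to 17061 in the UB, 109657 to 145542 in the WD and 237236 to 282078 in the WD+IM. Over 9 genes of duct epithelium it was 186504 to 197127 in the UB, 210969 to 231113 in the WD and 61059 to 94048 in the WD+IM. Median signals per array were 534 to 626 in the UB, 778 to 862 in the WD and 644 to 897 in the WD+IM. They separated every UB array from the arrays of the other tissues. A ratio of spiked control transcripts, bioC to bioB, was 2.87 to 2.99 on 4 arrays (all 3 of the UB and WD+IM replicate 3) and 1.02 to 1.23 on the other 5, so it separated every UB array from every WD array. It is called the spike ratio from here on. The ratio of beta-actin signal at its 3' over its 5' end, a mark of RNA preservation, also differed between tissues. It was 1.48 to 2.30 in the UB, 2.19 to 4.87 in the WD and 1.47 to 1.92 in the WD+IM, so it separated every WD array from every WD+IM array.

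Among the 10 enzymes, the 2 sulfatases were each called in at least 2 comparisons. The chain polymerases, both N-sulfation enzymes and Hs2st1 passed the test in no comparison. Hs3st1 was called higher in the UB in 2 comparisons. It entered the test through the UB arrays alone, so its calls are no independent support for a difference. Differences are log2 values, the first-named tissue minus the second, computed from signal plus 46 with their standard error (SE), and a gene is called at an adjusted p under 0.05 in limma, adjusted over all 20334 probe sets tested. A gene is represented by its tested probe set with the highest mean. For UB against WD, 4 of the 10 genes were called, Sulf2 and Hs3st1 higher and Sulf1 and Hs6st1 lower in the UB. Of all 10811 genes tested, 33.0% were called there (13.3% higher, 19.6% lower). With median centring 4 of the enzymes were higher and 1 lower, where 5845 of all 20334 probe sets were higher and 1530 lower. For WD+IM against WD, 2 of 10 were called, Sulf1 and Sulf2, both higher in the WD+IM, where 14.7% of all genes were called (6.48% higher, 8.23% lower). For UB against WD+IM, 3 of 10 were called, Glce and Hs3st1 higher and Sulf1 lower in the UB, where 30.3% of all genes were called (13.6% higher, 16.6% lower). The shares of enzymes called lie near the background of each comparison, so the number of enzymes called is not a result in itself. The arrays of the 2 tissues did not overlap for 5, 3 and 5 of the 10 enzymes in the 3 comparisons. The same held for 51.8%, 32.4% and 49.9% of all genes tested, so a lack of overlap is common here. The median difference of the 10 genes was 0.10, 0.13 and -0.19 in the 3 comparisons, against -0.08, -0.01 and -0.01 over all genes tested. The 3 comparisons share arrays. The p-values measure the spread between the pools of a tissue.

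**Figure D1:**
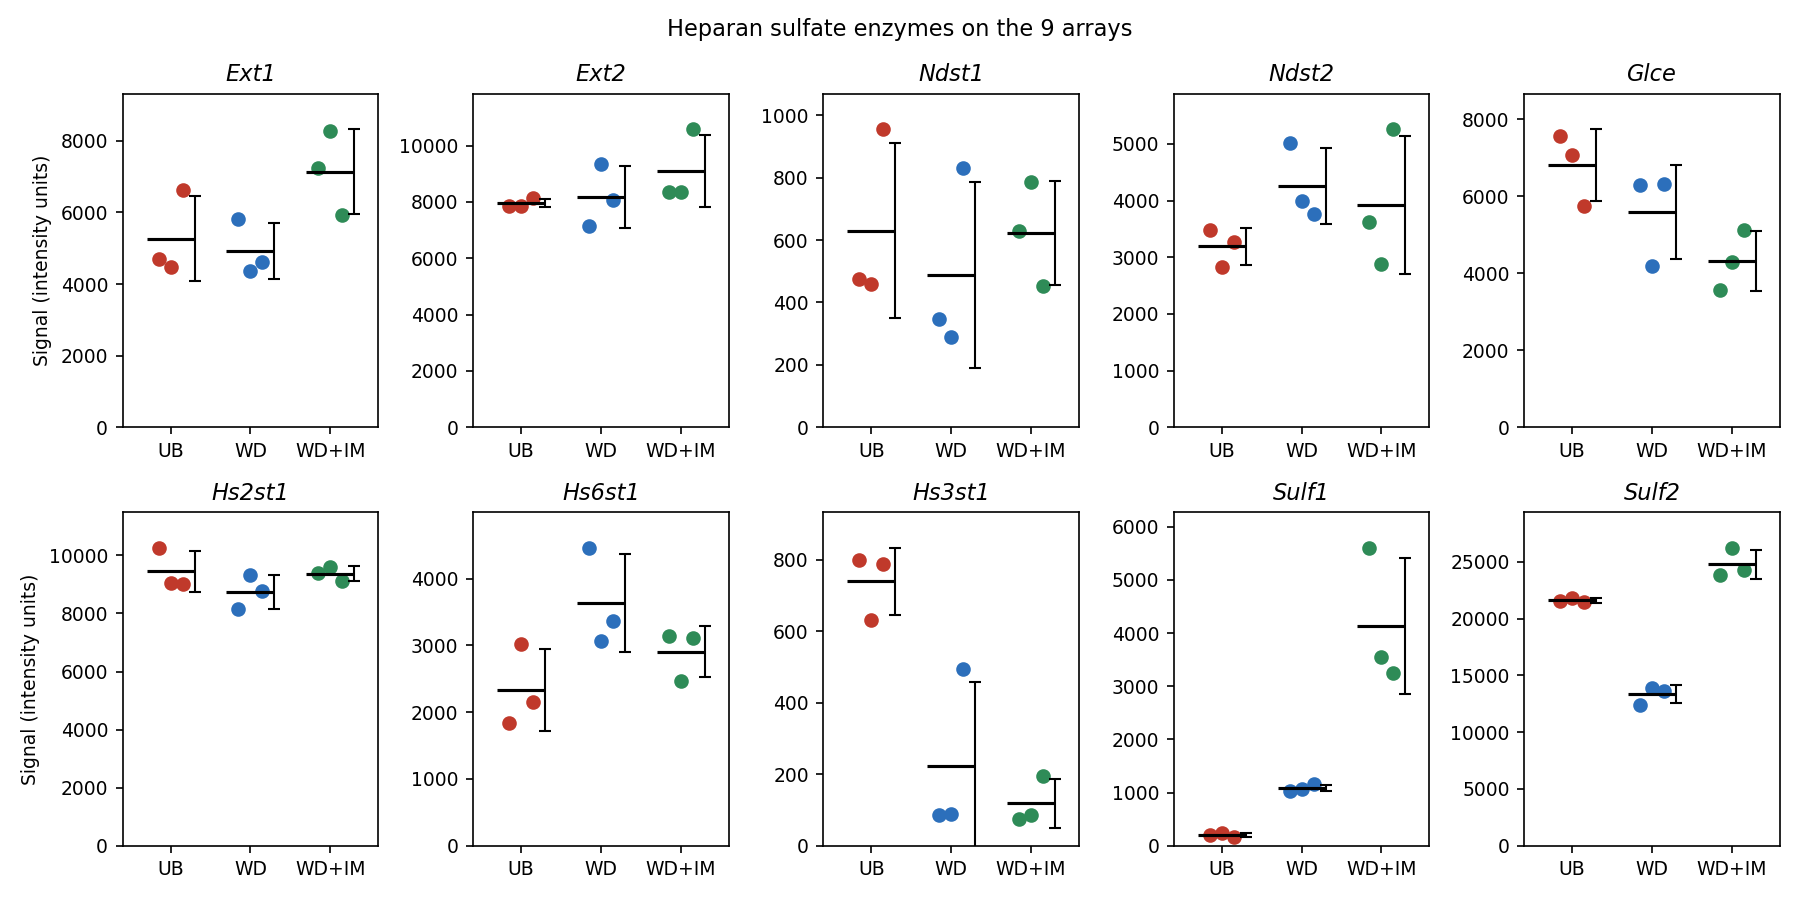
Signal of the 10 enzymes in intensity units (vertical axis, starting at 0, its own scale in each panel) on the 3 arrays each of UB, WD and WD+IM (points), with the group mean (line) and 1 SD to either side (bar at right, cut at 0 for Hs3st1 in the WD). Sulf1 rises from UB to WD to WD+IM, Sulf2 is lowest on the 3 WD arrays, and Hs2st1 sits at nearly one level across the 9 arrays.

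The sulfatase Sulf1 had the widest spread of the enzymes. Its signal was 195, 231 and 162 on the UB arrays, 1033, 1063 and 1156 on the WD arrays and 5606, 3553 and 3255 on the WD+IM arrays. The 3 tissues did not overlap, with the WD+IM highest and the UB lowest. The difference was -2.23 ± 0.25 (SE) for UB against WD, with means of 196 ± 34.1 and 1084 ± 64.0 (SD, n = 3 each) (limma adjusted p = 6.53e-05). With the mesoderm attached, Sulf1 was 1.85 ± 0.25 higher than in the WD alone, at a mean of 4138 ± 1280 (SD, n = 3), a 3.60-fold rise (limma adjusted p = 0.000585). Sulf1 differed by -4.08 ± 0.25 for UB against WD+IM (limma adjusted p = 2.18e-07). All 3 UB signals lay below the 40th percentile of their array, the level used here to leave out dim probe sets, so no fold is given against the UB, and the size depends on the pseudocount. With a pseudocount of 16 and with a larger one it was -2.39 and -1.91 for UB against WD and -4.26 and -3.68 for UB against WD+IM, called each time. A second Sulf1 probe set was too dim to be tested, with 5.90 to 21.9 on the UB arrays, 76.0 to 237 on the WD arrays and 27.3 to 561 on the WD+IM arrays.

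Sulf1 moved in the same order as the mesenchyme markers. All 13 mesenchyme genes tested were called lower in UB than in WD+IM tissue, 12 of the 13 were lower in the UB than in isolated WD, and 8 were higher in the WD+IM than in the WD, Col1a1 and Pdgfra among them. No marker is listed at 0 on any array. Genes of endothelium and smooth muscle were also higher with mesoderm, with 7 of 8 and 3 of 5 called for WD+IM against WD and summed signals of 34930 to 36633 against 4358 to 5256 and 22164 to 27845 against 7487 to 8245. Of coelomic and intermediate mesoderm genes 2 of 5 were called higher there, and of red cell and macrophage genes 0 of 5 and 0 of 8 (0 and 3 with an unadjusted p under 0.05). The red cell sum was 2751 to 7653 in the UB, 77538 to 131666 in the WD and 75651 to 120202 in the WD+IM. The part of these cells in the Sulf1 signal was not tested. In pooled tissue, fewer cells of a type and less RNA per cell cannot be told apart. The genes most like Sulf1 over the 9 arrays, by Pearson's r of log2 signals, were Efemp1 (0.993), Col5a1 (0.991) and Ccn2 (0.991). Such r values mainly reflect the 3 tissue means, since the arrays fall into 3 groups.

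Sulf2, the other sulfatase, had a different order of tissues. Its signal was 21540, 21842 and 21459 on the UB arrays, 12429, 13919 and 13636 on the WD arrays and 23834, 26233 and 24267 on the WD+IM arrays. The WD was lowest and overlapped neither of the other tissues. Sulf2 stood higher in the UB than in WD tissue by 0.70 ± 0.11 (SE), with means of 21614 ± 202 and 13328 ± 791 (SD, n = 3 each), or 1.62-fold (limma adjusted p = 0.000655). It was higher in the WD+IM than in the WD by 0.89 ± 0.11, with a mean of 24778 ± 1278 in the WD+IM (SD, n = 3), or 1.86-fold (limma adjusted p = 0.000271). Between UB and WD+IM the difference was -0.20 ± 0.11 with a 95% interval from -0.43 to 0.04 (limma adjusted p = 0.223). It was -0.31 ± 0.10 and called with quantile normalization (limma adjusted p = 0.0401), and 0.17 ± 0.20 with median centring. The 3 UB arrays lay below the 3 WD+IM arrays there, as the arrays of 49.9% of all genes lay wholly to one side. The genes most like Sulf2 were Prickle1 (r = 0.972), Sec11a (0.963) and Kcne3 (0.959), over the same 9 arrays.

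The 2 sulfatases thus went opposite ways from WD to UB and the same way from WD to WD+IM. With the spike ratio added as a term, the UB against WD difference was -1.78 ± 0.44 for Sulf1 and 0.74 ± 0.20 for Sulf2, and neither was then called (limma adjusted p = 0.0514 and 0.0695). That term is estimated from WD+IM replicate 3 against WD+IM replicates 1 and 2, the only tissue with both ratios. Among arrays of one spike ratio, Sulf1 was higher in WD+IM than in WD by 2.00 ± 0.27 and Sulf2 by 0.91 ± 0.16, both called (limma adjusted p = 0.00277 and 0.00903). Among the 4 arrays of high spike ratio, Sulf1 differed by -3.78 ± 0.38 for the UB arrays against WD+IM replicate 3 (limma adjusted p = 0.00205), the lone array being taken to vary like the others.

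**Figure D2:**
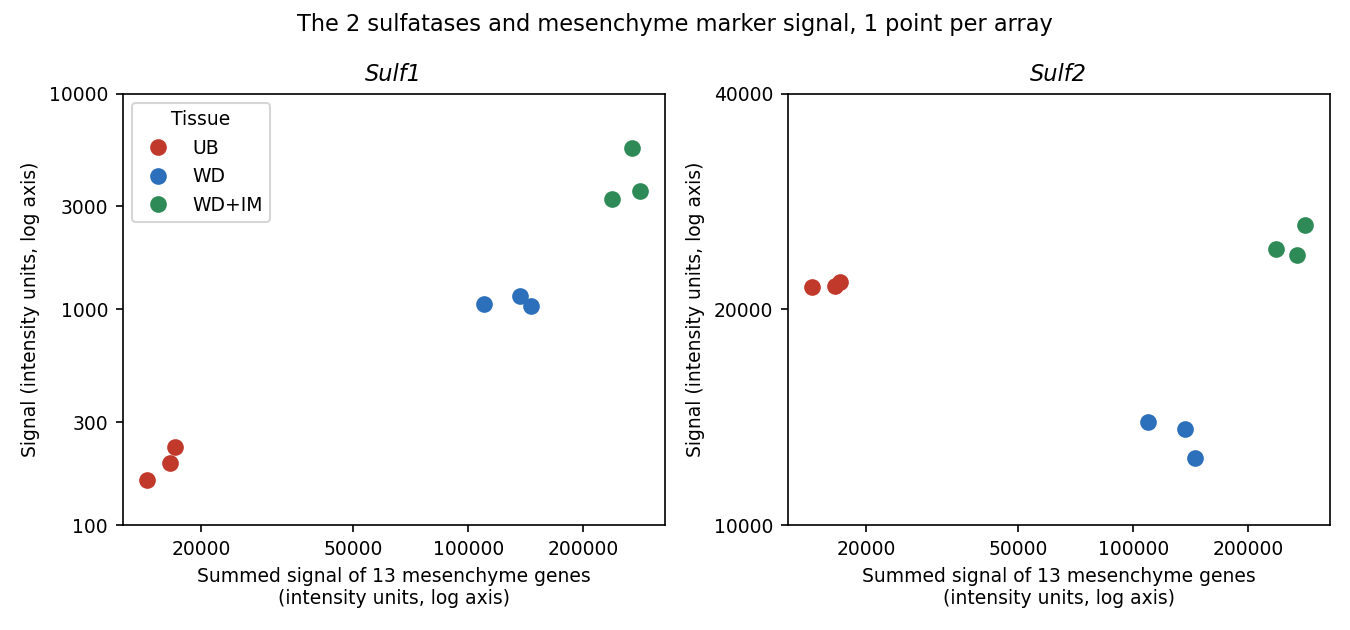
Signal of Sulf1 and Sulf2 (vertical, log axis, intensity units) against the summed signal of 13 mesenchyme and matrix genes (horizontal, log axis, intensity units), 1 point per array and 3 arrays per tissue. Sulf1 goes up with the mesenchyme sum from UB to WD to WD+IM, whereas Sulf2 lies at 21459 or more in UB and WD+IM and at 13919 or less in the WD.

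Hs3st1 adds the 3-O-sulfate group, a late and rare modification best known from the antithrombin-binding site of heparin. Its signal was 799, 630 and 788 on the UB arrays, 85.3, 89.8 and 495 on the WD arrays and 74.0, 84.8 and 196 on the WD+IM arrays. Every UB array lay above all 6 others, while WD replicate 3 stood well above the other 2 WD arrays. Only 3 of the 9 arrays lay above their own 40th percentile of signal for this gene, all of them UB arrays, so the gene entered the test through the tissue in which it is high. Its calls are therefore no independent support for a difference, and no fold is given against the dim tissues. The difference for UB against WD was 1.87 ± 0.59 (SE), with means of 739 ± 94.2 and 224 ± 235 (SD, n = 3 each; limma adjusted p = 0.0322). Against the WD+IM, at a mean of 118 ± 67.5 (SD, n = 3), it was 2.32 ± 0.59 (limma adjusted p = 0.0119). With a pseudocount of 16 these were 2.09 and 2.59, and with a larger one 1.49 and 1.84. The difference for WD+IM against WD was -0.45 ± 0.59, with a 95% interval from -1.74 to 0.84 (limma adjusted p = 0.666).

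The UB against WD call of Hs3st1 turned on single arrays. Without WD replicate 3 the difference was 2.55 ± 0.51 (limma adjusted p = 0.00505). The call was lost without UB replicates 1, 2 or 3 and without WD replicates 1 or 2, with differences of 1.53 to 1.98 and limma adjusted p-values of 0.0695 to 0.111. It was also lost with the spike ratio term, at 0.93 ± 1.04 (limma adjusted p = 0.691), and with a covariate for beta-actin signal at its 3' over its 5' end, a mark of RNA preservation, at 1.05 ± 0.76 (limma adjusted p = 0.352). The UB against WD+IM call was lost without UB replicate 1, at 2.27 ± 0.74 (limma adjusted p = 0.0571), and with the spike ratio term, at 1.69 ± 0.82 (limma adjusted p = 0.253). Among arrays of high spike ratio the 3 UB arrays stood against WD+IM replicate 3 alone, with a difference of 1.69, which has no replicate check on the WD+IM side. Closest to Hs3st1 over the 9 arrays were Cbr3 (r = 0.960), Gsr (0.958) and Tada2b (0.945).

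Glce, the epimerase that makes iduronic acid, was higher in UB than in WD+IM tissue. Its signal was 7566, 7072 and 5752 on the UB arrays, 6283, 4172 and 6315 on the WD arrays and 3551, 4293 and 5117 on the WD+IM arrays. The UB and WD+IM arrays did not overlap, as was so for 49.9% of all genes, and the WD arrays overlapped both. The difference for UB against WD+IM was 0.65 ± 0.20 (SE), with means of 6797 ± 938 and 4320 ± 783 (SD, n = 3 each), or 1.57-fold (limma adjusted p = 0.0299). Against the WD the UB differed by 0.30 ± 0.20 (95% interval -0.14 to 0.73) and the difference for WD+IM against WD was -0.36 ± 0.20 (-0.79 to 0.07), neither of them called. With median centring the UB against WD difference of Glce was 0.76 ± 0.26 and was called (limma adjusted p = 0.0322). The UB against WD+IM call was lost without UB replicate 1 (0.57 ± 0.23), UB replicate 2 (0.62 ± 0.23), WD+IM replicate 1 (0.52 ± 0.21) or WD+IM replicate 2 (0.66 ± 0.23). With the spike ratio term it was 0.40 ± 0.27 (limma adjusted p = 0.458). Against WD+IM replicate 3 alone, the array of that tissue with a high spike ratio, it was 0.40 as well.

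Hs6st1, which adds the 6-O-sulfate groups that the sulfatases remove, was lower in the UB than in WD tissue. Its signal was 1831, 3017 and 2147 on the UB arrays, 4462, 3067 and 3372 on the WD arrays and 3147, 2460 and 3111 on the WD+IM arrays. The highest UB array lay just below the lowest WD array, where the arrays of 51.8% of all genes did not overlap. The difference was -0.64 ± 0.22 (SE), with means of 2331 ± 614 and 3634 ± 734 (SD, n = 3 each), or 1.56-fold (limma adjusted p = 0.0415). The call was lost in 11 of 19 alternatives, among them median centring, at -0.18 ± 0.25 (limma adjusted p = 0.592), and the spike ratio term, at -0.80 ± 0.40 (limma adjusted p = 0.323). It was also lost without UB replicate 1 (-0.49 ± 0.24), UB replicate 3 (-0.60 ± 0.25), WD replicate 1 (-0.49 ± 0.23) or WD replicate 3 (-0.69 ± 0.25). For WD+IM against WD the difference was -0.31 ± 0.22 (95% interval -0.78 to 0.16), and for UB against WD+IM -0.33 ± 0.22 (-0.80 to 0.14).

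Hs2st1, the enzyme that sulfates iduronic acid, was measured by 3 probe sets and called by none in any comparison. On the brightest of them the signal was 10264, 9056 and 9022 on the UB arrays, 8154, 9312 and 8770 on the WD arrays and 9399, 9606 and 9121 on the WD+IM arrays. The tissues overlapped throughout. The difference was 0.11 ± 0.12 (SE) for UB against WD with a 95% interval from -0.15 to 0.37, 0.10 ± 0.12 for WD+IM against WD (-0.16 to 0.37) and 0.01 ± 0.12 for UB against WD+IM (-0.25 to 0.27). The other probe sets had means of 1203 ± 66.9 and 2180 ± 83.8 in the UB, 1299 ± 307 and 2031 ± 431 in the WD and 1146 ± 222 and 1979 ± 594 in the WD+IM (SD, n = 3 each). With each array centred on its median, which moves the median difference of all probe sets from -0.12 to 0.34 for UB against WD, Hs2st1 was called at 0.57 ± 0.20 (limma adjusted p = 0.0378).

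Ext1 and Ext2, which together form the polymerase of the chain, were called in no comparison. Ext1 had a signal of 4697, 4478 and 6636 on the UB arrays, 5825, 4355 and 4622 on the WD arrays and 7231, 8280 and 5922 on the WD+IM arrays. All WD+IM arrays lay above the WD arrays, as 32.4% of all genes lay wholly to one side in that comparison. The Ext1 difference for WD+IM against WD was 0.53 ± 0.19 (SE), with an unadjusted 95% interval from 0.11 to 0.94 (limma adjusted p = 0.0931), and for UB against WD+IM it was -0.44 ± 0.19 (limma adjusted p = 0.114). The second of these was called without UB replicate 3, at -0.62 ± 0.19 (limma adjusted p = 0.0412), and with array weights, at -0.56 ± 0.17 (limma adjusted p = 0.0241). The UB against WD difference was 0.08 ± 0.19 (95% interval -0.33 to 0.50). A second, dimmer Ext1 probe set had means of 415 ± 47.3, 390 ± 85.2 and 504 ± 172 in UB, WD and WD+IM (SD, n = 3 each). Ext2 had means of 7953 ± 147, 8183 ± 1098 and 9095 ± 1286 (SD, n = 3 each). Its UB arrays all lay below its WD+IM arrays, as 49.9% of all genes lay wholly to one side there. The Ext2 differences were -0.03 ± 0.14 for UB against WD (95% interval -0.35 to 0.28), 0.15 ± 0.14 for WD+IM against WD (-0.16 to 0.47) and -0.18 ± 0.14 for UB against WD+IM (-0.50 to 0.13).

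Ndst1 and Ndst2, the N-deacetylase and N-sulfotransferases that open the sulfation of the chain, were also called in no comparison. Ndst1 had a signal of 474, 461 and 955 on the UB arrays, 346, 289 and 831 on the WD arrays and 628, 787 and 453 on the WD+IM arrays. Its arrays spread as widely within a tissue as between tissues. The 95% interval was -0.53 to 1.33 for UB against WD, -0.50 to 1.36 for WD+IM against WD and -0.96 to 0.90 for UB against WD+IM. The first 2 intervals reach past a 2-fold higher level, which was not detectable at this spread. Ndst2 had a signal of 3476, 2828 and 3269 on the UB arrays, 5012, 3993 and 3762 on the WD arrays and 3620, 2887 and 5259 on the WD+IM arrays. The UB arrays lay below the WD arrays, a pattern that 51.8% of all genes showed in one direction or the other, at a difference of -0.40 ± 0.21 (95% interval -0.87 to 0.06, limma adjusted p = 0.17). Against the WD+IM, the UB differed by -0.26 ± 0.21 (-0.72 to 0.21). Against WD+IM replicate 3 alone, the array of that tissue with a high spike ratio, it was -0.72, a value that rests on 1 WD+IM array.

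**Figure D3:**
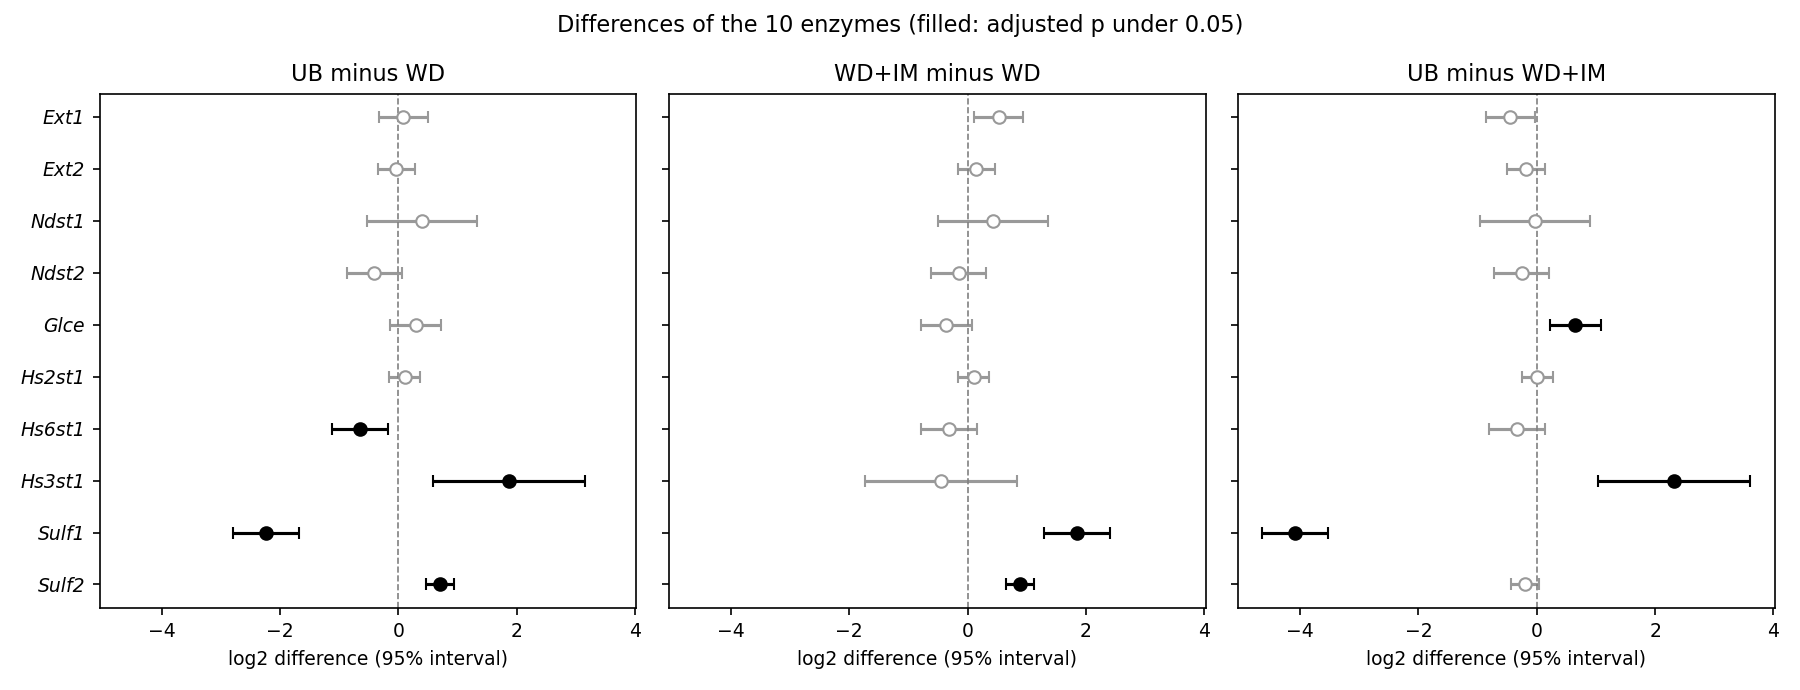
Log2 difference of the 10 enzymes in the 3 comparisons (horizontal axis), with bars for the unadjusted 95% interval, filled black where limma's adjusted p was under 0.05 and open grey otherwise. Sulf1 reaches -4.08 for UB against WD+IM, Hs3st1 has the widest intervals, and Hs2st1 and Ext2 lie near 0 in all 3 panels.

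The other genes of the heparan sulfate pathway formed 5 lists, covering the sugar linker to the core protein, other chain enzymes, the sulfate donor PAPS, the sugar donors, and breakdown in the lysosome. Of 40 genes listed, 33 had a probe set and 28 were tested. For UB against WD, 9 of 28 were called, 4 higher and 5 lower, and with median centring 9 were higher and 3 lower. For WD+IM against WD, 0 were higher and 1 was lower, and with median centring 1 was higher and 0 lower. For UB against WD+IM, 3 were higher and 4 lower, and with median centring 6 were higher and 2 lower. Without centring the background shares are those given above for all genes, and the medians over the 28 genes were -0.08, -0.04 and -0.11. With median centring 5845 of all 20334 probe sets were called higher and 1530 lower for UB against WD. The same counts were 1244 and 921 for WD+IM against WD, and 4609 and 1793 for UB against WD+IM.

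Of 8 sugar donor genes tested, the UB had 3 higher and 1 lower, relative to the WD. Gnpnat1, an enzyme on the way to UDP-N-acetylglucosamine, averaged 6490 ± 179 over the UB arrays and 3826 ± 47.0 over the WD arrays (SD, n = 3 each), a difference of 0.76 ± 0.13 (SE, limma adjusted p = 0.00162). It was also higher in UB than in WD+IM tissue, by 0.89 ± 0.13 (limma adjusted p = 0.000349). Uxs1, which makes the UDP-xylose that starts the linker, rose by 0.84 ± 0.20 from WD to UB (limma adjusted p = 0.00866), and Gfpt2, of hexosamine synthesis, by 0.72 ± 0.25 (limma adjusted p = 0.0498), a call lost in 12 of 19 alternatives, among them the omission of any 1 UB array or of WD replicates 2 or 3 (0.51 to 0.84). The sugar nucleotide transporter Slc35d2 was lower in the UB, at -1.54 ± 0.32 (limma adjusted p = 0.00432). For UB against WD+IM, Slc35d2 was at -0.99 ± 0.32 (limma adjusted p = 0.0407), a call lost in 11 of 19 alternatives. Ugdh, which makes UDP-glucuronic acid, differed by 0.21 and was not called. For WD+IM against WD, 0 of the 8 were called in limma and 3 had an unadjusted p under 0.05.

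Among the linker genes, B3galt6, a galactosyltransferase, rose from WD to UB by 0.93 ± 0.30 (SE, limma adjusted p = 0.0366), lost in 8 of 19 alternatives, among them the omission of UB replicates 1 or 3 or of any 1 WD array. By the probe set that represents each gene, the other 5 of 6 linker genes tested were called in no comparison, but their further probe sets differed. A second probe set of Xylt2, which starts the linker, was called lower in the UB against both tissues. It was at -0.95 ± 0.19 against the WD and -0.86 ± 0.19 against the WD+IM (limma adjusted p = 0.00329 and 0.00517). The representing one gave -0.76 and -0.79. Another tested Xylt2 probe set went the other way against the WD, at 0.34 ± 0.28 (limma adjusted p = 0.377). Against the WD+IM that probe set was at -0.29 ± 0.28 (limma adjusted p = 0.515). A second probe set of Fam20b, the xylose kinase, was called at 1.73 ± 0.47 for UB against WD (limma adjusted p = 0.017). The representing one gave 0.10. The second Fam20b probe set passed the level used to leave out dim probe sets on the UB arrays alone. It entered the test through the tissue in which it is high, so its call is no independent support for a difference. Extl2, an enzyme that can add the first N-acetylglucosamine, had means of 433 ± 112 in the UB, 1251 ± 69.0 in the WD and 1292 ± 365 in the WD+IM (SD, n = 3 each). The difference was -1.46 ± 0.28 for UB against WD (limma adjusted p = 0.00244) and -1.47 ± 0.28 for UB against WD+IM (limma adjusted p = 0.00186). Extl3, the related initiating enzyme, went the other way for UB against WD+IM, at 0.56 ± 0.16 (limma adjusted p = 0.0234). That call was lost in 6 of 20 alternatives, among them the omission of UB replicates 1 or 2 or of WD+IM replicate 1 (0.44 to 0.57).

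Of 5 genes tested around the sulfate donor, Papss1, the synthase of PAPS, was lower in the UB, by -0.59 ± 0.14 (SE) against the WD and -0.45 ± 0.14 against the WD+IM (limma adjusted p = 0.00805 and 0.0297). Both calls were lost with median centring, at -0.13 and -0.09, and the second also without any 1 UB array or without WD+IM replicates 2 or 3 (-0.49 to -0.39). Slc35b3, a transporter of PAPS into the Golgi, had means of 7527 ± 755, 9225 ± 535 and 5580 ± 628 in UB, WD and WD+IM (SD, n = 3 each). The difference was -0.72 ± 0.14 for WD+IM against WD (limma adjusted p = 0.00422), a call lost in 3 of 20 alternatives. For UB against WD+IM it was 0.43 ± 0.14 (limma adjusted p = 0.0373), a call lost in 9 of 20 alternatives. Further probe sets of Bpnt2, a phosphatase of the Golgi that clears the product of sulfation, were called for UB against WD at 1.18, 0.58 and 0.53, where the representing one gave -0.10. Of 7 breakdown genes tested, Idua, the lysosomal iduronidase, was lower in the UB relative to the WD, at -1.44 ± 0.23 (limma adjusted p = 0.000738) and Arsg, a lysosomal sulfatase, at -1.26 ± 0.31 (limma adjusted p = 0.0102). For UB against WD+IM, Idua was at -1.01 ± 0.23 (limma adjusted p = 0.00602), a call lost in 2 of 20 alternatives. The Arsg call was lost in 4 of 18 alternatives, among them quantile normalization, at -0.71, and median centring, at -0.80. None of the 7 passed for WD+IM against WD, where 0 were called in limma and 0 had an unadjusted p under 0.05. With the spike ratio term, 0 of these 28 genes were called for UB against WD in limma, and 5 had an unadjusted p under 0.05. Only 798 of all 20334 probe sets were called with that term, so a count of 0 says little about these genes. The errors rose with that term, and the differences did not all come closer to 0: Extl2 was at -1.71 ± 0.51, Papss1 at -0.77 ± 0.25 and Gfpt2 at 0.91 ± 0.47, while Uxs1 was at 0.44 ± 0.34, B3galt6 at 0.30 ± 0.52 and Slc35d2 at -0.65 ± 0.51.

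Of 10 further heparan sulfotransferase genes listed, such as Hs6st2 and Hs3st2, 4 had a probe set and none reached the level for testing. Their 5 probe sets had signals of 4.71 to 518 over the 9 arrays. Hs6st2 had means of 165 in the UB, 245 in the WD and 373 in the WD+IM, and Hs3st2 of 148, 372 and 125. Hpse, the heparanase, and Papss2 were too dim as well.

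**Figure D4:**
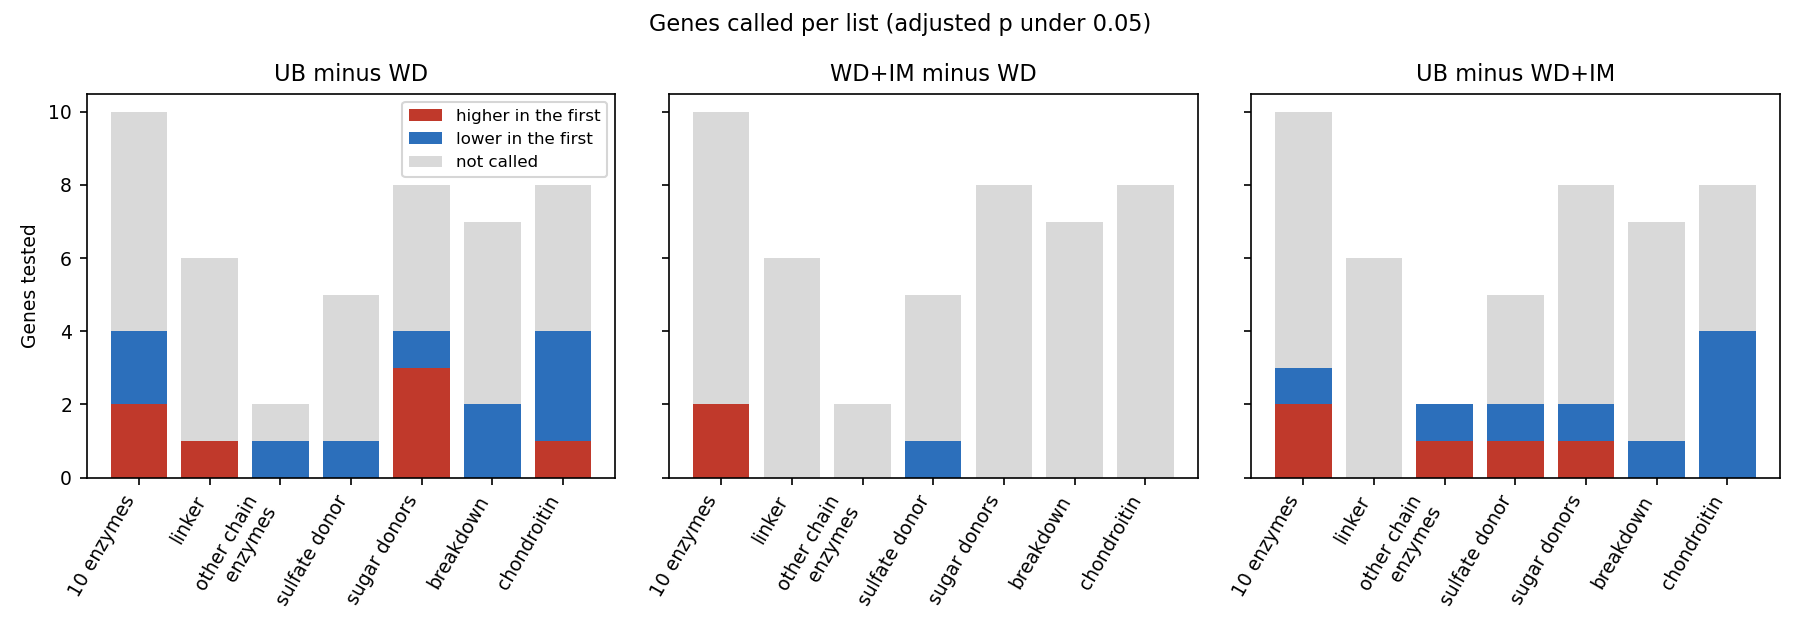
Number of genes tested (vertical axis) in the 10 enzymes and in 6 lists of related genes, divided into called higher (red), called lower (blue) and not called (grey) in the first-named tissue of each of the 3 comparisons. For WD+IM against WD, 2 of the 10 enzymes and 1 sulfate donor gene were called and 0 in the other lists shown.

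Of 13 genes tested for the proteins that carry the chains, 2 were called higher and 5 lower for UB against WD, where 13.3% and 19.6% of all genes were. Gpc1 and Gpc4 were the higher ones, and Agrn, Gpc6, Sdc4, Col18a1 and Hspg2 the lower ones. With median centring 4 were higher and 2 lower, and 5845 and 1530 of all 20334 probe sets, so the split turns with the scaling. The WD+IM had 1 higher, Sdc2, and the same 5 lower than the WD, where 6.48% and 8.23% of all genes were. With median centring it had 1 higher and 3 lower, where 1244 and 921 of all probe sets were. Between UB and WD+IM, 2 were higher in the UB, Gpc1 and Gpc4, and 1 was lower, Sdc2, where 13.6% and 16.6% of all genes were. With median centring 4 were higher and 0 lower, where 4609 and 1793 of all probe sets were. Of 9 further probe sets tested for these genes, 4 were called in some comparison.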

How the data were processed

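Total RNA was labelled with biotin and hybridised to 9 arrays, per the labels' protocols. The deposited table holds an intensity per probe set and array on a linear scale. The authors used GCOS, per the submitters' processing notes, with version and summary algorithm not given in the sources used here. The arrays share a trimmed mean of 2501 (2% left out at each end), so values are relative to the rest of the array. No detection calls were used, and precision is limited by there being 9 arrays. Of 31099 probe sets, 57 were controls, 20826 carried 1 symbol (20758 of them matched the GRCr8 gene table by Entrez ID), 436 carried several and 9780 carried none. Positions are not given, since the array's genome build is not named.

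With R 4.3.3 and limma 3.58.1, log2(intensity + 46) was fitted with group as the only term on all 9 arrays (6 residual and 6.09 prior degrees of freedom, mean-variance trend). The pseudocount is the 10th percentile of all values, and it understates changes of dim genes. Probe sets above their array's 40th percentile on at least 3 arrays were tested, 20334 in all, 13 of them of the 10 enzymes. The Benjamini-Hochberg adjustment was made per comparison over the tested probe sets. The fit was tested on simulated data. The enzymes, lists and tests were chosen with earlier results of these data known. All 10 enzymes are named, with up to 4 called genes of each related list per comparison. All called core proteins are named, with values for further probe sets only. The 3 genes most like each of the 3 enzymes with the smallest F-test p are named as well. The genes Xylt2, Fam20b, Bpnt2, Gpc3, Ugdh, Hs6st2, Hs3st2, Hpse and Papss2, and the markers Col1a1 and Pdgfra, fall outside these rules and were chosen after their values were seen. So were the further probe sets of Gpc6 given with values.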

Additional observations from a re-analysis of the deposited data

How the results depend on the processing

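Of the 9 called differences of the 10 enzymes, 145 of 174 values under alternative settings kept their call and 29 lost it, and 0 changed sign. Among 25 called differences of related genes other than core proteins, a set of alternatives added after seeing the data kept 380 of 481 values and lost 101. The calls of Sulf1 and Sulf2 for WD+IM against WD and of Sulf1 for UB against WD+IM held in all 20 alternatives each. A change of sign was not counted where neither fit made a call.

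With the spike ratio as a term, 0 of the 10 enzymes were called for UB against WD in limma (3 at an unadjusted p under 0.05) and 1 for UB against WD+IM, against 4 and 3, and 0 (5 at an unadjusted p under 0.05) and 2 of the 28 related genes, against 9 and 7. Over all probe sets that term left 798 calls of 6073 for UB against WD and 2414 of 5177 for UB against WD+IM. The term rests on WD+IM replicate 3 against the other WD+IM arrays, since the UB and the WD each have only one ratio. Within arrays of one spike ratio, 1444 of 2577 were called for WD+IM against WD and 2992 for UB against WD+IM, with 0 (4 at an unadjusted p under 0.05) and 3 of the related genes. No such fit was possible for UB against WD. The beta-actin covariate gave 3276 calls for UB against WD, with 2 enzymes and 5 related genes, and 826 for WD+IM against WD, with 0 related genes (2 at an unadjusted p under 0.05). The related genes called for WD+IM against WD numbered 3 with quantile normalization, 2 with the 60th percentile filter and 4 with the mean of a gene's probe sets, against 1. They numbered 5 for UB against WD with that filter and 12 for UB against WD+IM with that mean.

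Leaving out 1 array gave 3742 to 5570 calls for UB against WD, 1778 to 2715 for WD+IM against WD and 3637 to 5280 for UB against WD+IM. Enzymes called ranged over 2 to 3, 2 to 2 and 1 to 4, and related genes over 7 to 8, 1 to 2 and 3 to 7. Same-numbered arrays did not pair, with correlations of their deviations from the group means of -0.348 to 0.277. The replicate block gave 5338, 2194 and 4608 calls over all probe sets and 3, 2 and 3 enzymes, losing Hs6st1 alone among the 9 called enzyme differences. For UB against WD, 2297 probe sets were higher and 3776 lower, 2527 and 2433 with quantile normalization and 5845 and 1530 with median centring, and the median difference of all was -0.12, 0.04 and 0.34. The chondroitin and dermatan genes called numbered 1 for UB against WD and 2 for UB against WD+IM with median centring, against 4 and 4, and 1 for WD+IM against WD with quantile normalization, against 0. The split of all calls was, between UB and WD+IM, 2228 and 2949, 4609 and 1793 with median centring, and for WD+IM against WD 1142 and 1435, and 1244 and 921. The causes of these changes were not tested.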

Other observations

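Chondroitin and dermatan sulfate chains are built on the same linker as heparan sulfate by another set of enzymes. Of 17 genes listed for these chains, which include Arsb for their breakdown in the lysosome, 12 had a probe set and 8 were tested. For UB against WD, 1 was higher and 3 lower. For WD+IM against WD, 0 were called in limma (3 with an unadjusted p under 0.05). For UB against WD+IM, 0 were higher and 4 lower. Of all genes tested, 13.3% were called higher and 19.6% lower in the first of these comparisons and 13.6% and 16.6% in the last. Chsy1, a chondroitin synthase, rose from WD to UB by 0.62 ± 0.14 (SE, limma adjusted p = 0.0071), from 12453 ± 1446 to 19084 ± 887 (SD, n = 3 each). Chst14, the dermatan sulfotransferase, had means of 2177 ± 96.6 in the UB, 3336 ± 272 in the WD and 4850 ± 784 in the WD+IM (SD, n = 3 each), with differences of -0.60 ± 0.16 for UB against WD and -1.13 ± 0.16 for UB against WD+IM (limma adjusted p = 0.0152 and 0.000218). Csgalnact2 was also lower in the UB in both comparisons, at -0.62 ± 0.19 and -0.84 ± 0.19 (limma adjusted p = 0.0302 and 0.0063), the first lost without UB replicates 1 or 3 or WD replicates 1 or 2 (-0.63 to -0.51). Dsel, of dermatan synthesis, differed by -0.90 ± 0.22 for UB against WD (limma adjusted p = 0.0102). For UB against WD+IM, Arsb and Chst12 were lower by -0.51 ± 0.13 and -1.10 ± 0.33 (limma adjusted p = 0.0134 and 0.029). The Arsb call was lost without UB replicate 3 (-0.46), and the Chst12 call without UB replicates 1 or 2 or WD+IM replicates 1 or 2 (-1.14 to -0.94). Median centring lost the UB against WD calls of Chst14, Csgalnact2 and Dsel and the UB against WD+IM calls of Arsb, Csgalnact2 and Chst12, without a change of sign. With the spike ratio term 0 of the 4 UB against WD calls were kept in limma, where 798 of all 20334 probe sets were called. Dsel was then at -1.22 ± 0.39 and Csgalnact2 at -0.70 ± 0.36, while Chsy1 was at 0.28 ± 0.23 and Chst14 at -0.30 ± 0.28.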
